A study of Homo sapiens with 6 samples.

Results

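The 8 genes that write, maintain and remove 5-methylcytosine in DNA were examined in ATAC-seq of H1 human pluripotent stem cells. They are DNMT1, UHRF1, DNMT3A, DNMT3B, TET1, TET2, TET3 and TDG, chosen by name among 20037 protein-coding genes of the RefSeq annotation of GRCh38. All summits inside each gene or within 20 kb of either end were taken, which gave 259 of 356720 summits in 1045 kb of windows. Summits of different libraries within 250 bp of each other were joined into loci, and 78 of 123131 loci lay in the windows.

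The series holds 6 libraries of H1 cells, an embryonic line grown in mTeSR1 medium on Matrigel. Cells received a lentiviral short hairpin and were selected with puromycin, so that all 6 libraries share infection and selection. The hairpins were shHNRNPU #1 and shHNRNPU #2, both against HNRNPU, and shLUC, which serves as the control hairpin, with repeats 1 and 2 of each. HNRNPU encodes a nuclear RNA-binding protein associated with chromatin. The files do not measure HNRNPU, and the labels do not say whether repeats were separate cultures, so that p-values measure only the spread between these libraries. ATAC-seq reads out where the Tn5 transposase can enter chromatin, and a summit is the highest point of an enriched region.

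DNA methylation is laid down on cytosines of CpG pairs by the de novo enzymes DNMT3A and DNMT3B. It is copied to the new strand after replication by DNMT1, which UHRF1 brings to hemimethylated sites. TET enzymes oxidize 5-methylcytosine, and TDG cuts out the more oxidized forms so that base excision repair can restore cytosine. Pluripotent cells are known for high levels of DNMT3B and TET1.

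The lists held 52168 to 63519 summits each. Each summit carries a score, the −log10 of a q-value within its own library, which was not normalized between libraries and was therefore ranked to a percentile of its list, with 100 for the strongest summit. Read depth is unknown, so the lack of a summit means only that none was called. The pluripotency genes POU5F1, SOX2 and NANOG each had a summit within 2000 bp in 6 of 6 libraries. Values are listed below for shHNRNPU #1 repeats 1 and 2, then shHNRNPU #2 repeats 1 and 2, then shLUC repeats 1 and 2.

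Sequences around 6 annotated starts of the members are shown first, because each member had an open locus at a start and because TET1 and TET3 each have 2 start regions that differed in strength. Stretches of UHRF1, DNMT3A, DNMT3B and TET2 are not shown, although summits fell in some of them as well. Each sequence shown runs from 200 bases before the start to 30 bases after it, 5′ to 3′ along the gene, as in RefSeq for GRCh38.p14. Capitals mark matches, on either strand, to 7 motifs. DNMT1 lies on the minus strand and the others on the plus strand.
DNMT1, chr19:10194924-10195153, the only annotated start: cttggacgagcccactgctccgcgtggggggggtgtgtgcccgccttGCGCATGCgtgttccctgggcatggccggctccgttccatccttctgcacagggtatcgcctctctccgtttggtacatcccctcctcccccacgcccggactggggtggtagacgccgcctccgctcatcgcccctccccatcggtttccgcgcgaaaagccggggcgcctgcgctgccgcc
TET1, chr10:68560137-68560366, the 5′ start: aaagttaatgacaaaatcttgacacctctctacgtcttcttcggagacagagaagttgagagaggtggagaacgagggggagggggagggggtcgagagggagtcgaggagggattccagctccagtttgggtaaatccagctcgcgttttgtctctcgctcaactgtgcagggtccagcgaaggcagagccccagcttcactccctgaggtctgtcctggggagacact
TET1, chr10:68600274-68600503, a downstream start: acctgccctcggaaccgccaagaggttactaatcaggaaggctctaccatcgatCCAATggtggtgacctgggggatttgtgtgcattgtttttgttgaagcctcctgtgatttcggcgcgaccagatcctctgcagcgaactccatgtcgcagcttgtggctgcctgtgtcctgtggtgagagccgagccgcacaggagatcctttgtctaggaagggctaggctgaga
TET3, chr2:73984710-73984939, a 5′ start: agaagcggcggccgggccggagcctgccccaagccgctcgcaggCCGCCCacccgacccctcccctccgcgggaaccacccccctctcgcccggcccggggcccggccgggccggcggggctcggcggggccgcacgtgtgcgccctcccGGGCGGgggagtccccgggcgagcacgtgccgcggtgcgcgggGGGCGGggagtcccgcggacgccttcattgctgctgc
TET3, chr2:74002492-74002721, the downstream start: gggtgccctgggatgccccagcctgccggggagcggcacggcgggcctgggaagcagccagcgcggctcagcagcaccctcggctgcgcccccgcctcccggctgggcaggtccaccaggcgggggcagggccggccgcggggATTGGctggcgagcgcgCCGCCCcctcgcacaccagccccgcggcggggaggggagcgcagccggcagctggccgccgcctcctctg
TDG, chr12:103965672-103965901, the only annotated start: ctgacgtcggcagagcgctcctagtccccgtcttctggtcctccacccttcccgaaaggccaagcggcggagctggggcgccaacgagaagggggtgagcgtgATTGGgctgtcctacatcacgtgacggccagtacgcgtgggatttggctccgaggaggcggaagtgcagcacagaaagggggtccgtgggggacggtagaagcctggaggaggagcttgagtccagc

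Of 35116 promoter stretches of this length, GGGCGG was found in 41.7%, CCAAT in 29.8%, CCGGAAG in 9.15%, TATAAA in 9.12%, GCATGCGC in 2.79%, ATGGCGGC in 2.02% and TGACGTCA in 1.77%. The DNMT1 start held 1 match to GCATGCGC, the core of the motif of the factor NRF1. The TET3 5′ start held 3 matches to GGGCGG, the box bound by Sp1, and its downstream start held 1 match to GGGCGG and 1 to CCAAT. The TET1 5′ start held no match, and the TET1 downstream start and the TDG start each held 1 match to CCAAT. A match is a description of the letters and not a bound site. The stretches of TET3 held 35 and 26 CpG pairs, those of DNMT1 24, of TDG 18, and of TET1 9 at the 5′ start and 10 at the downstream start, beside a median of 11 over all promoters. The TET3 5′ stretch held more CpG pairs than 95.7% of promoters. No summit of any library fell in it, whereas 6 summits fell in the downstream stretch. This depends on where the 5′ stretch ends, as summits of 2 libraries lay just past it. They were at 68 bp from that start in shHNRNPU #1 repeat 2 and at 59 bp in shHNRNPU #2 repeat 1.

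All 8 members had an open locus within 500 bp of an annotated start in 6 of 6 libraries, as had 56.0% of 15843 protein-coding genes with an annotated promoter. At the strongest such locus, the mean percentile was 97.4 for TDG, 95.0 for DNMT3A, 93.8 for TET1, 91.6 for DNMT1, 90.8 for DNMT3B, 85.3 for TET3, 82.5 for UHRF1 and 63.0 for TET2. The median over the 8872 genes with such a locus was 88.5. TDG stood above 87.2% of those genes and TET2 above 8.84%.

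**Figure D1:**
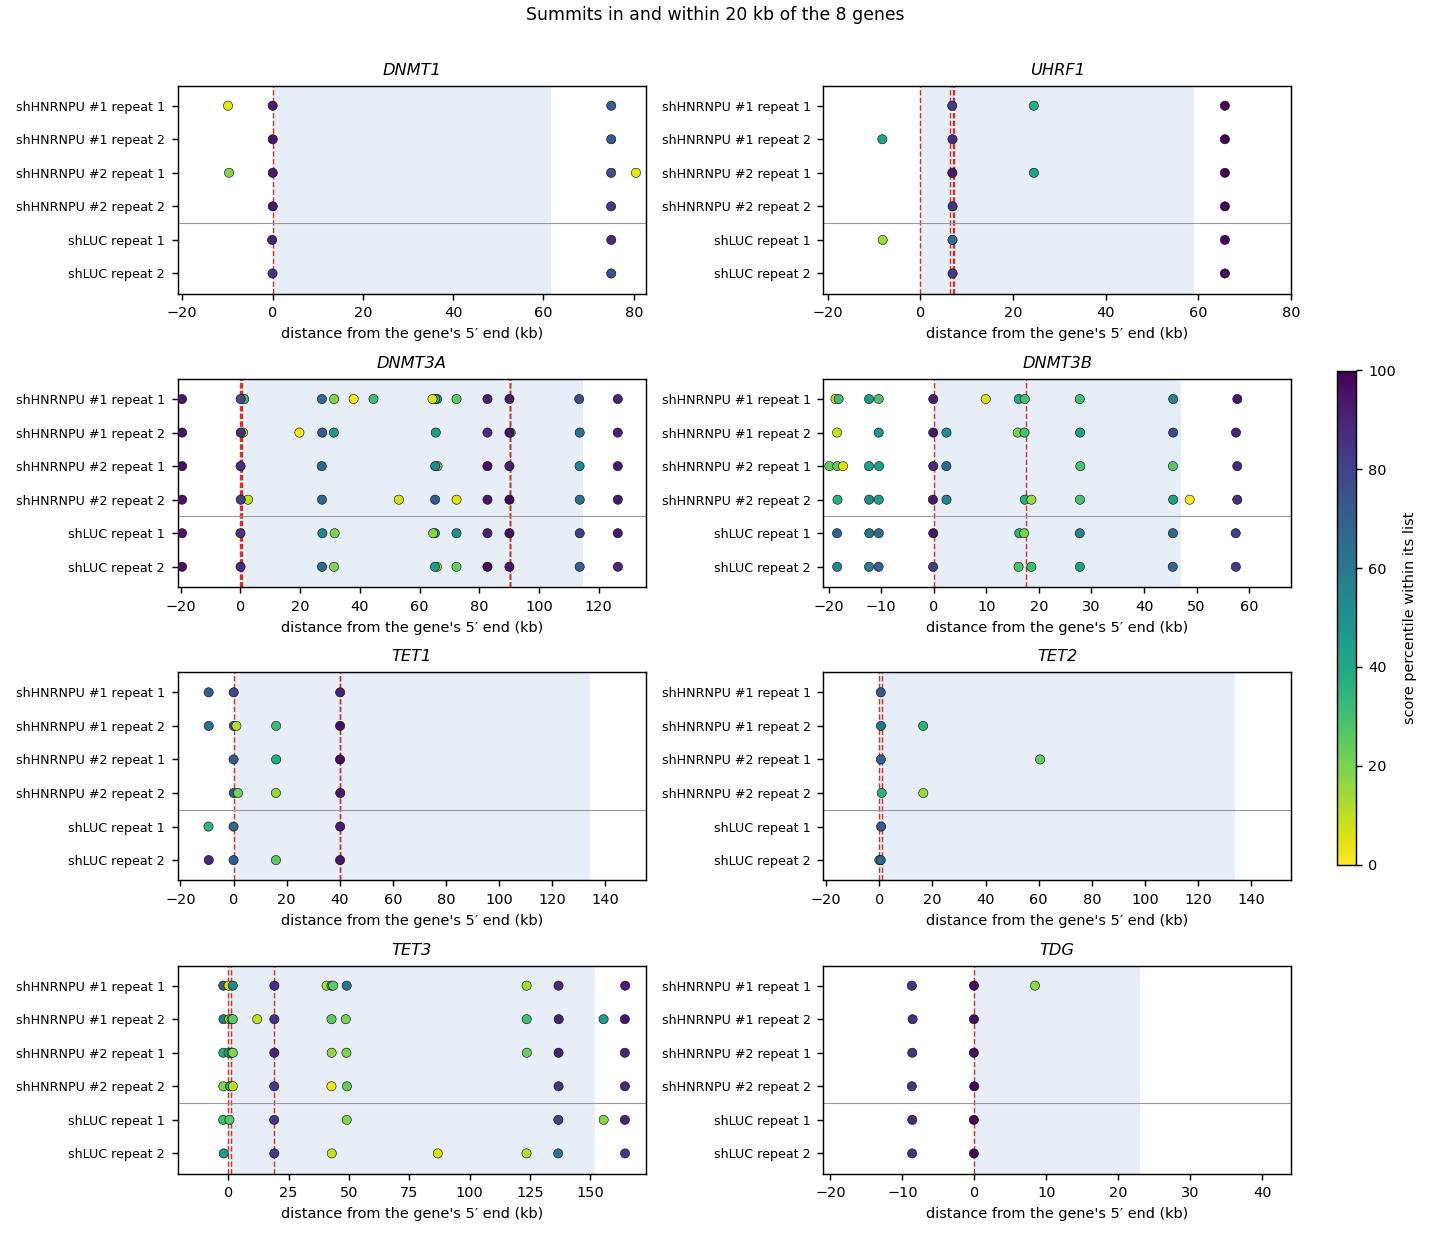
Each panel is 1 gene and its 20 kb flanks, with distance from the gene's 5′ end along the gene in kb on the x axis and the 6 libraries on the y axis. Points are summits coloured by score percentile within their list, shading is the gene and dashed lines are annotated starts. Every library has a summit at or near a start of every gene, mostly dark, and pale points are scattered inside DNMT3A, DNMT3B and TET3.

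The maintenance pair came first. DNMT1 (chr19:10133346-10194953, minus strand) had 3, 2, 4 and 2 summits in the shHNRNPU libraries and 2 and 2 in shLUC. Its start locus, whose centre lay 46 bp inside the gene, had percentiles of 92.9, 95.1, 93.4 and 93.0 in shHNRNPU and 90.9 and 84.5 in shLUC. The groups did not overlap, with means of 93.6 ± 1.05 (SD, n = 4) and 87.7 ± 4.55 (SD, n = 2) and a difference of 5.87 points, for an exact two-sided permutation p of 0.133. That is the smallest p that 4 against 2 libraries allow, so that no single comparison here can reach 0.05. Without shLUC repeat 2 the difference was 2.65 points, and without shLUC repeat 1 it was 9.09 points. The summit of DNMT1 also lay at different bases, at 21, 46, 47 and 45 bp from the start in shHNRNPU and at −98 and −9 bp in shLUC, where negative values lie upstream.

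Positions did not overlap between the groups at 5 of the 25 member loci called in all libraries, or 20%, beside 14.1% of all such loci. The other 4 were the TET1 5′ start and loci inside DNMT3A, DNMT3B and TET3 at 65.2, 45.5 and 136.8 kb. At the TET1 5′ start the summits lay at 76, 115, 21 and 87 bp in shHNRNPU and at 20 and 18 bp in shLUC, so that the groups were 1 bp apart at their nearest.

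UHRF1 (chr19:4903080-4962154, plus strand) had 3, 3, 3 and 2 summits in shHNRNPU and 3 and 2 in shLUC. No library had a summit within 2000 bp of the gene's 5′ end. Its open start lay 6.88 kb further in, with percentiles of 81.4, 87.1, 91.9 and 85.9 in shHNRNPU and 65.7 and 83 in shLUC. The groups overlapped there, since shLUC repeat 2 stood above shHNRNPU #1 repeat 1, and the difference of 12.2 points had an exact permutation p of 0.267. The strongest locus of the window was the start of the neighbour KDM4B, a histone demethylase gene, at 98.4 to 99.6 in the 6 libraries.

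The de novo enzymes had more loci. DNMT3A (chr2:25227874-25342590, minus strand) had 15, 12, 9 and 11 summits in shHNRNPU and 11 and 11 in shLUC, so that the controls stood within the range of the knockdown libraries. It had 2 open start regions. The 5′ start had percentiles of 77.2, 87.2, 86.5 and 80.5 in shHNRNPU and 84.9 and 88.0 in shLUC. The downstream start, 90.1 kb in, had 94.1, 95.9, 91.6 and 97.8 in shHNRNPU and 96.6 and 93.8 in shLUC. Groups overlapped at both starts, with differences of −3.59 and −0.32 points. Summits at the downstream start lay at −161 to −147 bp in all 6 libraries. Inside the gene, a locus 82.8 kb from the 5′ end, 7519 bp from the nearest annotated start, was nearly as strong, at 87.1 to 97.7. Flanking loci at −19.5 kb and 126.4 kb from the 5′ end ranged from 93.9 to 96.0 and from 88.7 to 93.5.

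DNMT3B (chr20:32762385-32809356, plus strand) had 11, 9, 10 and 11 summits in shHNRNPU and 9 and 9 in shLUC, with a difference of 1.25 and an exact permutation p of 0.4. With a score of 5 or more it had 5, 6, 5 and 9 in shHNRNPU and 8 and 7 in shLUC, so that the difference turned to −1.25. Its start had percentiles of 92.7, 94.1, 88.0 and 93.1 in shHNRNPU and 94.3 and 82.2 in shLUC, so that the controls were both the highest and the lowest. A locus in the upstream flank, at −10.5 kb (chr20:32751892) and 8425 bp from the start of the neighbour COMMD7, went the other way from DNMT1. It had 28.9, 48.3, 42.5 and 43.6 in shHNRNPU and 63.6 and 68.2 in shLUC, and the groups did not overlap. The means were 40.8 ± 8.35 (SD, n = 4) and 65.9 ± 3.23 (SD, n = 2), a difference of −25.1 points with an exact permutation p of 0.133.

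Loci inside DNMT3B at 27.8 and 45.5 kb had lower means in shHNRNPU as well, by −17.1 and −16.2 points, but the groups overlapped and the exact permutation p was 0.267 and 0.4. At the locus at 45.5 kb, shHNRNPU ranged from 25.7 to 77.8, on both sides of the controls at 65.9 and 67.1. A locus 2.41 kb into the gene had a summit in 3 of 4 shHNRNPU libraries, at 52.3, 64.6 and 55.9, and in neither shLUC library, whose nearest summit lay 2493 bp away.

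**Figure D2:**
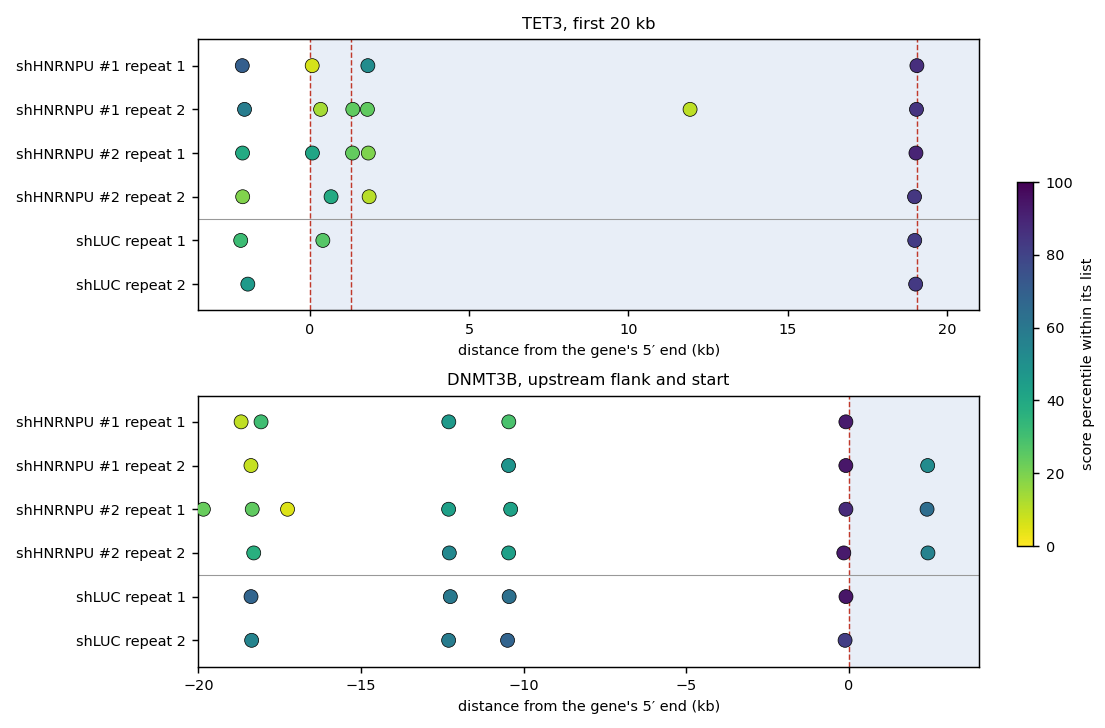
The upper panel shows the 5′ part of TET3 and the lower panel the upstream flank and start of DNMT3B, with distance from the 5′ end in kb on the x axis and the 6 libraries on the y axis. Points are summits coloured by score percentile within their list, and dashed lines are annotated starts. At 1.82 kb in TET3 the 4 shHNRNPU libraries have a summit of at most 51.6 and shLUC has none, and at −10.5 kb from DNMT3B the shLUC points are darker.

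Among the oxidizing enzymes, TET1 (chr10:68560337-68694487, plus strand) had 3, 5, 3 and 4 summits in shHNRNPU and 3 and 4 in shLUC. Its 5′ start had percentiles of 79.4, 72.1, 73.0 and 71.9 in shHNRNPU and 67.4 and 72.3 in shLUC. Its downstream start, 40.1 kb in, was stronger in every library, at 90.3, 96.8, 96.5 and 92.5 in shHNRNPU and 92.6 and 94.2 in shLUC. Groups overlapped at both, with differences of 4.23 and 0.64 points. A locus at −9.32 kb was called at 70.7 and 64.4 in shHNRNPU #1 and at 34.9 and 87.7 in shLUC, and not in shHNRNPU #2.

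TET2 (chr4:105145875-105279803, plus strand) was the gene with the weakest start of the 8. It had 1, 2, 2 and 2 summits in shHNRNPU and 1 and 2 in shLUC. The start locus, 748 bp into the gene, had percentiles of 70.7, 62.1, 68.4 and 35.8 in shHNRNPU and 72.8 and 68.4 in shLUC. The mean difference of −11.4 points came with an SD of 16.1 among the shHNRNPU libraries, of which #2 repeat 2 was the lowest, and the exact permutation p was 0.267.

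TET3 (chr2:73983631-74135498, plus strand) was the only member whose summit numbers did not overlap between the groups. It had 11, 12, 10 and 8 summits in shHNRNPU and 7 and 7 in shLUC. The means were 10.3 ± 1.71 (SD, n = 4) and 7 ± 0 (SD, n = 2), a difference of 3.25 with an exact permutation p of 0.133 and an adjusted p of 1 over all 18733 protein-coding genes with a summit in their window. So 1 of 8 members had more summits in all shHNRNPU libraries, where 3.54% of all genes did, and 0 of 8 had fewer, where 3.92% did. With summits of score 5 or more only, TET3 had 7, 5, 5 and 4 in shHNRNPU and 4 and 4 in shLUC, and the groups overlapped. Its summits of score under 5 numbered 4, 7, 5 and 4 against 3 and 3.

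**Figure D3:**
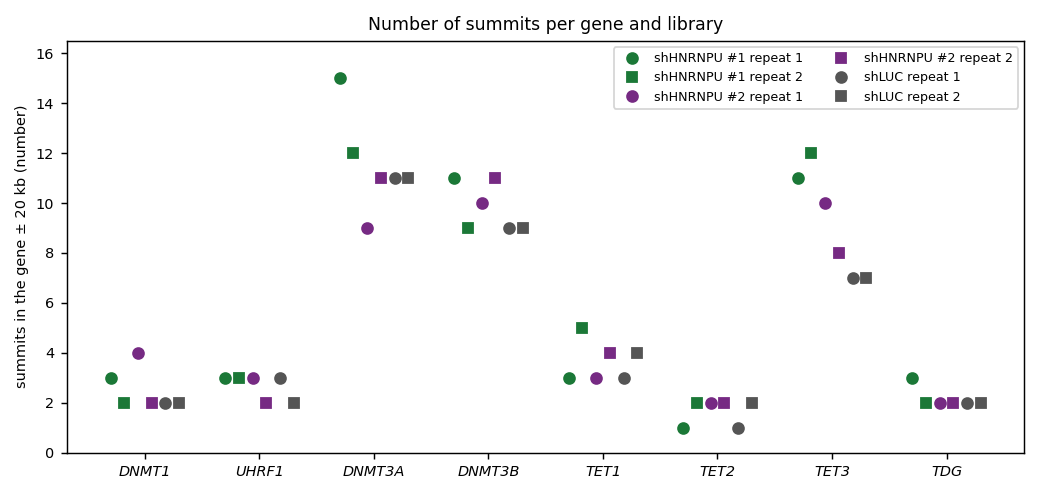
The number of summits in each gene and its 20 kb flanks is on the y axis and the 8 genes are on the x axis, with 1 point per library. Colours mark hairpins, circles repeat 1 and squares repeat 2. TET3 is the gene with both shLUC points, at 7, below all shHNRNPU points, which lie between 8 and 12.

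The open start of TET3 in these cells was the downstream one, 19.0 kb in, with percentiles of 86.7, 84.8, 89.9 and 84.2 in shHNRNPU and 82.4 and 83.5 in shLUC. The groups did not overlap, although the lowest shHNRNPU value and the highest shLUC value were close, and the difference was 3.45 points with an exact permutation p of 0.133. Around the 5′ starts, within 2000 bp, there were 2, 3, 3 and 2 summits in shHNRNPU and 1 and 1 in shLUC. The summits within this distance were weak and scattered. The 1 of shLUC repeat 2, at −1948 bp, belonged to a locus at −2.12 kb called in 6 of 6 libraries. The centre of that locus lay 70 bp from an end of the neighbour DGUOK-AS1. In the other libraries the summits of that locus lay just outside the distance, at −2171 to −2051 bp. Its percentiles were 70.0, 57.8, 39.4 and 19.0 in shHNRNPU and 31.6 and 45.9 in shLUC. At chr2:73985451, which is 1820 bp into the gene, all 4 shHNRNPU libraries had a summit, at 51.6, 24.5, 19.4 and 10.6 with scores of 7.91, 4.26, 3.47 and 3.17. Neither shLUC library had one, and the nearest shLUC summit was 1413 bp away. With a score of at least 5 this locus was left in 1 library.

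A further locus of TET3 lay 136.8 kb from the 5′ end and 78 bp from the pseudogene FNBP1P1. It had 88.3, 90.2, 90.4 and 85.3 in shHNRNPU and 80.7 and 61.2 in shLUC, for means of 88.6 ± 2.34 (SD, n = 4) and 71.0 ± 13.8 (SD, n = 2). The difference was 17.6 points with an exact permutation p of 0.133, and it was 7.83 points without shLUC repeat 2 and 27.3 points without shLUC repeat 1. The strongest locus of the TET3 window was the start of the neighbour BOLA3, at 83.4 to 93.9.

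TDG (chr12:103965872-103988874, plus strand), the glycosylase gene, had 3, 2, 2 and 2 summits in shHNRNPU and 2 and 2 in shLUC. Its start was the strongest of the 8 genes, with percentiles of 97.1, 95.8, 96.3 and 98.1 in shHNRNPU and 99.0 and 98.1 in shLUC. That locus was centred 81 bp upstream of the TDG start and 84 bp from an end of the neighbour UQCC6. The groups overlapped, and the difference of −1.73 points had an exact permutation p of 0.267. The window's other locus in all libraries was at an annotated start of UQCC6, at 83.8 to 88.0.

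**Figure D4:**
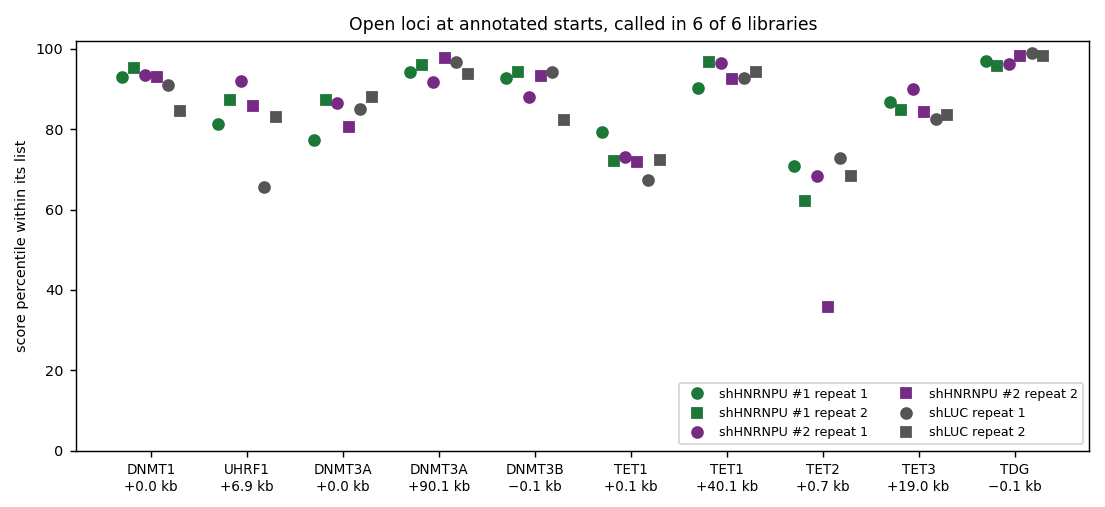
Score percentile within its list is on the y axis for the 10 start loci of the members called in all 6 libraries, named by gene and distance from the 5′ end in kb, with 1 point per library. Colours mark hairpins, circles repeat 1 and squares repeat 2. Groups stand apart at the start of DNMT1 and the downstream start of TET3, and the point at 35.8 is the TET2 start in shHNRNPU #2 repeat 2.

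Over the 8 windows together, shHNRNPU libraries had 50, 47, 43 and 42 summits and shLUC libraries 38 and 39. The groups did not overlap, with means of 45.5 ± 3.70 (SD, n = 4) and 38.5 ± 0.71 (SD, n = 2), a difference of 7 and an exact permutation p of 0.133. With flanks of 50 kb the difference was 8, but the groups overlapped and the exact permutation p was 0.267. As a share of each list, the windows took 0.0847%, 0.0740%, 0.0736% and 0.0805% in shHNRNPU and 0.0611% and 0.0635% in shLUC, so that the order held for lists of different length. The median percentile of the summits in the windows was lower in shHNRNPU, at 53.0, 57.8, 56.2 and 59.8 against 67.5 and 68.4, a difference of −11.2 points with an exact permutation p of 0.133. With all lists cut to the length of the shortest it was −4.31 points with an exact permutation p of 0.267, and with flanks of 50 kb it was −4.34 points.

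The surplus lay among weak summits. With a score of 5 or more there were 32, 32, 29 and 30 summits in shHNRNPU and 31 and 30 in shLUC, a difference of 0.25 with an exact permutation p of 1. With a score under 5 there were 18, 15, 14 and 12 against 7 and 9, a difference of 6.75 with an exact permutation p of 0.133. Summits under 5 made up 36.0%, 31.9%, 32.6% and 28.6% of those in the windows in shHNRNPU and 18.4% and 23.1% in shLUC. Over the whole lists they made up 31.1%, 32.3%, 34.9% and 27.9% in shHNRNPU and 31.3% and 36.2% in shLUC, where the groups overlapped.

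Strong loci were shared. Of the 78 member loci, 25 were called in all 6 libraries, or 32.1% beside 20.7% of all loci, and another 25 in a single library, or 32.1% beside 38.0%. The shared member loci had a median percentile of 84.1, beside 73.7 for all shared loci, and those in a single library 12.9, beside 14.9. All loci were taken over the whole genome and not only around genes, so these values compare unlike places. By place, 10 of 17 loci at a member's start were called in all libraries, 7 of 39 inside a member away from its starts, 5 of 16 in the flanks and 3 of 6 at a neighbour's start. Loci counted as flank could still lie at the end of another gene. Of those 5, the locus 75.0 kb from the DNMT1 5′ end lay 48 bp from an end of EIF3G. The one at −2.12 kb from TET3 lay 70 bp from an end of DGUOK-AS1.

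No member locus was lost with both hairpins. Of the 32 loci with a summit in both shLUC libraries, 0 lacked one in all 4 shHNRNPU libraries, beside 5.68% of all loci that could be lost. Of the 27 loci in all 4 shHNRNPU libraries, 1 was absent from both shLUC libraries, the TET3 locus above, or 3.70% beside 3.59% of all loci. Against shHNRNPU #1 alone, 0 of 32 were lost, beside 10.4%, and 1 of 32 was gained, or 3.13% beside 10.5%. Against shHNRNPU #2 alone, 3 of 32 were lost, or 9.38% beside 11.9%, and 3 of 33 were gained, or 9.09% beside 7.79%.

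The 3 loci lost with shHNRNPU #2 were the TET1 locus at −9.32 kb and loci inside DNMT3A at 31.6 kb and DNMT3B at 16.2 kb. The locus in DNMT3A had percentiles of 18.6 in shHNRNPU #1 repeat 1 and 19.7 and 19.3 in shLUC. A summit of shHNRNPU #1 repeat 2, at 46.5, lay 267 bp away and thus just outside the matching distance. It centred an adjoining locus at 31.3 kb, which also took in the summits of shHNRNPU #1 repeat 1 and shLUC repeat 2. The locus in DNMT3B had 39.2 and 21.1 in shHNRNPU #1 and 34.9 and 28.4 in shLUC. The 3 gained were the TET3 locus, the DNMT3B locus at 2.41 kb and a locus at the start of MAPRE1 in the DNMT3B window, whose nearest shLUC summit was 276 bp away and thus just outside the matching distance. With 2 libraries on each side, these counts per hairpin were not tested.

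At the 25 loci called in all libraries, percentiles were higher in all shHNRNPU libraries at 3, or 12.0% beside 10.9% of all such loci, and lower at 1, or 4.00% beside 13.9%. The 3 were the DNMT1 start, the TET3 downstream start and the TET3 locus at 136.8 kb, and the 1 was the locus at −10.5 kb from DNMT3B. Loci missing from any library are left out of this count. Of the 3 member loci called in 5 libraries, those at −18.4 and −12.3 kb from DNMT3B were lower in every shHNRNPU library that had them. The former had 8.6, 24.5 and 37.0 against 67.6 and 55.0, and the latter 46.5, 43.4 and 53.3 against 59.5 and 58.4. Both lay nearer to the start of the neighbour COMMD7 than to that of DNMT3B, at 537 and 6665 bp from it. The former was missing from shHNRNPU #1 repeat 1, whose nearest summit lay 305 bp away and thus outside the matching distance. At the locus 42.7 kb into TET3, the groups overlapped. The difference of means was positive at 14 of 25, with a median of 0.33 points, beside −0.29 over the 25519 loci. The balance depended on the setting and on single libraries. With a score of at least 5, of 20 loci 5 were higher and 0 lower. Without shHNRNPU #1 repeat 2, of 26 loci 3 were higher and 4 lower. Without shLUC repeat 2, of 25 loci 6 were higher and 8 lower. The shares over all loci were not computed at these settings, so these shifts cannot be called particular to the members.

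**Figure D5:**
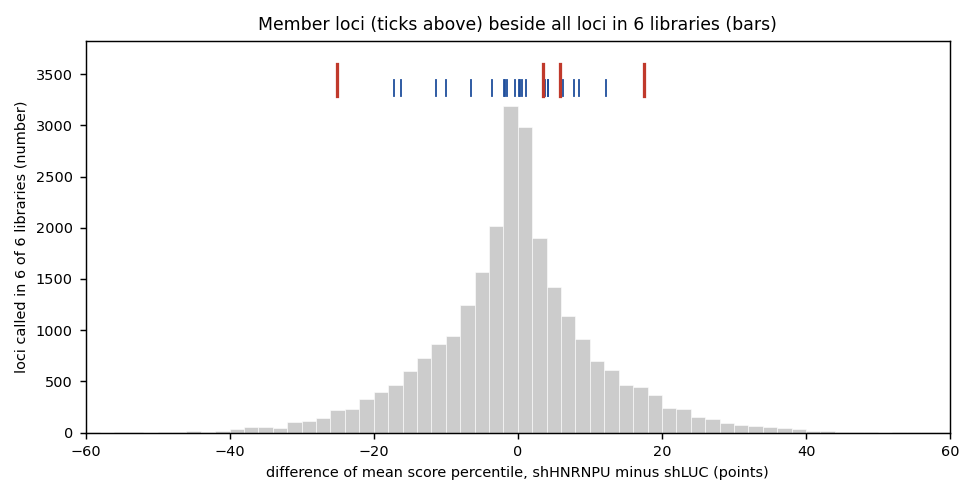
Grey bars count the 25519 loci called in all 6 libraries by the difference of mean score percentile, shHNRNPU minus shLUC in points, on the x axis, with bars 2 points wide. Ticks above are the 25 member loci, and the 4 taller red ticks are those whose groups did not overlap, at −25.1, 3.45, 5.87 and 17.6. Most member ticks lie in the bulk of the bars.

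Another 26 genes of the pathway, with 149 loci, were counted the same way. They were cofactors of the methyltransferases such as HELLS and DPPA3, readers of methylated DNA such as MBD2 and MBD3, and genes of demethylation and base excision repair such as APEX1 and XRCC1. With both hairpins, 0 of 67 loci were lost, beside 5.68% of all, and 1 of 66 was gained, or 1.52% beside 3.59%. The gained locus, at chr17:7440692 over FGF11 in the window of ZBTB4, had 58.4, 48.1, 55.5 and 59.9 in shHNRNPU, and the nearest shLUC summit lay 3477 bp away. Of 59 loci called in all libraries, 11 were higher, or 18.6% beside 10.9%, and 4 lower, or 6.78% beside 13.9%, in all shHNRNPU libraries. By list, 2 and 0 of 11 loci were higher and lower for the 7 cofactors, 2 and 2 of 24 for the 8 readers, and 7 and 2 of 24 for the 11 demethylation and repair genes. Of the 26 genes, 1 had more summits in every shHNRNPU library, where 3.54% of all genes did, and 0 had fewer, where 3.92% did. That 1 was GADD45B, a stress-response gene linked to demethylation, with 8, 7, 7 and 7 against 6 and 6.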

How the data were processed

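The authors deposited 1 list of summits per library, with peaks called separately in each. The deposited score is, from its values and layout, the −log10 of a q-value within its own library. The submitters' processing notes name cutadapt, Bowtie2, SAMtools, MACS2, deepTools and the build hg38, and versions and settings are not given in the sources used here. Groups and repeat numbers came from the sample titles. The members and lists were chosen with earlier results of these data known. The article by which the series is listed describes other libraries, and only its style was used.

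Positions were compared with gene bounds and annotated starts of RefSeq for GRCh38.p14. Scores were ranked to percentiles within each list. Loci were centred on the summit of highest percentile, which absorbed summits within 250 bp, and a library had a locus if a summit lay within 250 bp of the centre. Where it had several, the one of highest percentile was used. A start locus lay within 500 bp of an annotated start, and the windows had flanks of 20 kb. Values per library were compared by exact two-sided permutation, in which any 2 of the 6 libraries could be the controls (15 ways), with Benjamini-Hochberg adjustment over all protein-coding genes, in place of the adjustment over the 8 genes that had been planned. For each member the text gives its summit numbers, its start, its strongest locus, and every locus that was lost, gained or did not overlap between the groups. Other loci named were chosen after their values were seen, as was the TET3 5′ stretch. The other promoters shown each held a summit, but so did stretches of UHRF1, DNMT3A, DNMT3B and TET2 that are not shown. Calculations used Python 3.11.15, numpy 2.4.6, pandas 2.3.3 and statsmodels 0.14.6, were tested on simulated data, and were repeated with a score of at least 5, lists of 1 size, matching within 100 or 500 bp, flanks of 5 or 50 kb, absence judged within 1000 bp, and each library left out. No correction for read depth was possible, as the files hold no counts. From the planned list of other pathway genes, 1 reader is not reported here.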

Additional observations from a re-analysis of the deposited data

Results flagged for a closer look

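In the 4 shHNRNPU libraries, a value was marked where it stood apart from the other 3 by Dixon's criterion. This marked 5 of 36 measures examined, where chance marks about 1 in 20, or 1.8. UHRF1 had 2 summits in shHNRNPU #2 repeat 2 and 3 in each of the others. TET2 had 1 summit in shHNRNPU #1 repeat 1 and 2 in the others, and TDG had 3 summits in that library and 2 in the others. For such small whole numbers, a difference of 1 summit is enough to be marked. The DNMT3B locus at 27.8 kb had a percentile of 44.7 in shHNRNPU #1 repeat 2, with 29.8 as the nearest other value. The TET1 5′ start had 79.4 in shHNRNPU #1 repeat 1, with 73.0 as the nearest.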

How the results depend on the processing

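With a score of at least 5, the difference in the median percentile turned from −11.2 to 2.40 points (exact permutation p = 0.667), the difference in summits was 0.25, and 0 loci were gained and 0 genes did not overlap between the groups; the cause was not tested. Gained loci numbered 2 with lists of 1 size and 2 with matching within 100 bp, where 2 were lost and 2 loci in all libraries did not overlap between the groups. With flanks of 50 kb, 9 of 36 such loci did not overlap and the exact permutation p for the difference in summits was 0.267. When each library was left out, lost loci ranged from 0 to 2, gained loci from 1 to 2, genes that did not overlap from 1 to 2, and loci that did not overlap from 4 to 14. The highest, 10 and 14 of 25, came without shLUC repeat 1 and without shLUC repeat 2, where 1 control is left and less is needed to stand apart. Without shHNRNPU #1 repeat 1 there were 9 of 26, and without #1 repeat 2 there were 7 of 26 and DNMT3B joined TET3. The shares over all loci and genes were not computed at these settings. The difference in summits ranged from 5.5 to 8.17. Repeat numbers did not pair the samples, as deviations from group means correlated by −0.04, −0.01 and 0.00 over 25519 loci. With the replicate block the differences were the same 7 and −11.2, with an exact permutation p of 0.222, the smallest it allows. Of 119 alternatives for single genes and loci, 14 moved by more than the spread. The sign of the difference in summits changed in 10 of the 119, over 6 genes, and not for DNMT1 or TET3. The DNMT1 difference nevertheless fell from 0.75 to 0 with a score of at least 5 and with flanks of 5 kb. None of the 6 genes whose sign changed stood apart between the groups in the values reported above. With a score of at least 5, DNMT3B turned to −1.25 and TET1 and TET2 to −0.25. With flanks of 50 kb, TET2 turned to −0.75 and TDG to −0.50. The changes without 1 library touched DNMT3A, TET1, TET2 and UHRF1 and lay between −0.33 and −0.17. Depth is unknown, so weak summits near the calling threshold set the limit of what can be compared.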
